A study of Mus musculus with 6 samples.

Results

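The cadherin and protocadherin superfamily was followed in mRNA from whole pancreas of mouse embryos with and without intact Prox1, a homeobox transcription factor gene of pancreatic progenitors. Members were chosen by symbol: the numbered Cdh genes other than Cdh5, the Cdhr genes, every Pcdh gene, Dchs1, Fat1 to Fat4 and Celsr1 to Celsr3. This rule took 105 of the 23337 gene symbols listed in each library. The rule reads symbols only, but the members were proposed with earlier results of these data known. Pancreas of NMRI embryos at E13.5 was compared between 3 control pools, labelled wildtype, and 3 mutant pools. The mutant label reads Prox1-nullyzygous, and the series gives these embryos as Prox1 GFPCre/D. Each pool held 5 to 6 pancreata of 1 genotype and gave 1 library, and neither group is labelled as carrying a single mutant allele. Nothing in the labels says which part of Prox1 the mutant alleles lack, or what D stands for.

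Cadherins are membrane proteins whose extracellular repeats bind calcium and, in most of the family, the same or a related cadherin on the neighbouring cell. Type I and type II classical cadherins hold cells together at adherens junctions through catenins. Fat, Dachsous and Celsr proteins are giant cadherins of growth control and planar polarity, and protocadherins, many of them encoded in gene clusters, give cells, above all neurons, an identity at their surface. In the embryonic pancreas E-cadherin joins the cells of the branching epithelium, while other classical cadherins are found on endocrine cells and mesenchyme.

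The libraries held 16060424 to 17633867 reads assigned to genes, and no pair of libraries was identical. Values are given in CPM, reads scaled to library size, where 1 CPM stood for 15.9 to 17.5 reads. The targeted gene Prox1 gave read counts of 1764, 1687 and 1824 (control pools 1 to 3) and of 1330, 1774 and 1602 (mutant pools 1 to 3). The estimate for Prox1, -0.17 on the log2 scale (SE 0.074), did not pass the test (adjusted p = 0.235). As the deleted part of Prox1 is not stated, these counts are no check of which pools are mutant. The pancreatic transcription factor genes Pdx1 (50.4 ± 0.910 CPM in controls and 40.7 ± 6.34 CPM in mutants, SD, n = 3) and Ptf1a (20.3 ± 3.97 and 21.4 ± 2.39 CPM) were present in both groups. Control pool 3 and mutant pool 1 had almost no Xist reads, 9 and 2, against at least 33297 in every other pool, so the pools differed in their mix of sexes within each group.

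Mutant and control pools were compared with edgeR's quasi-likelihood test over all 14687 genes with enough reads, and a gene was called changed at a Benjamini-Hochberg adjusted p under 0.05. Of the 105 members, 102 had at least 1 read, 84 were tested and 13 were called, 6 higher and 7 lower in mutants. The 13 calls were 15.5% of the members tested, where 7.95% of all genes tested were called. Those higher made up 7.14% of the members tested against 3.67% of all genes, and those lower 8.33% against 4.28%. The median log2 fold change, mutant minus control as throughout, was 0.04 over the 84 members and 0.00 over all genes. Because each library came from whole organs, fewer cells of a type and less RNA per cell cannot be told apart in these values. The calls were uneven within the family. All 13 lay among the 41 tested members outside the protocadherin clusters (31.7%), and 0 of the 43 tested clustered protocadherins were called by edgeR, where 2 had an unadjusted p under 0.05. DESeq2 and limma voom also called 0 clustered members. The values of the 3 control and 3 mutant pools did not overlap for 17 of the 84 members (20.2%), against 26.4% of all genes. This share was also uneven, with 15 of the 41 members outside the clusters (36.6%) and 2 of the 43 clustered members (4.65%).

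The number of calls moved with single pools, in the family and over all genes. Leaving out control pool 1 gave 2 members higher and 5 lower, with 629 genes called in all against 1167 with every pool. Control pool 2 left out gave 7 higher, 7 lower and 1421 genes in all, and control pool 3 gave 1, 6 and 798. For mutant pool 1 these counts were 2, 7 and 767, for mutant pool 2 they were 0, 4 and 648, and for mutant pool 3 they were 4, 5 and 776. When both pools with almost no Xist reads were dropped, the calls were 1 higher and 7 lower, with 665 genes in all. Of the 13 called members, 4 kept their call under each of the 15 alternative settings, namely Cdhr1, Cdhr2, Celsr3 and Cdh1, all lower in mutants.

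**Figure D1:**
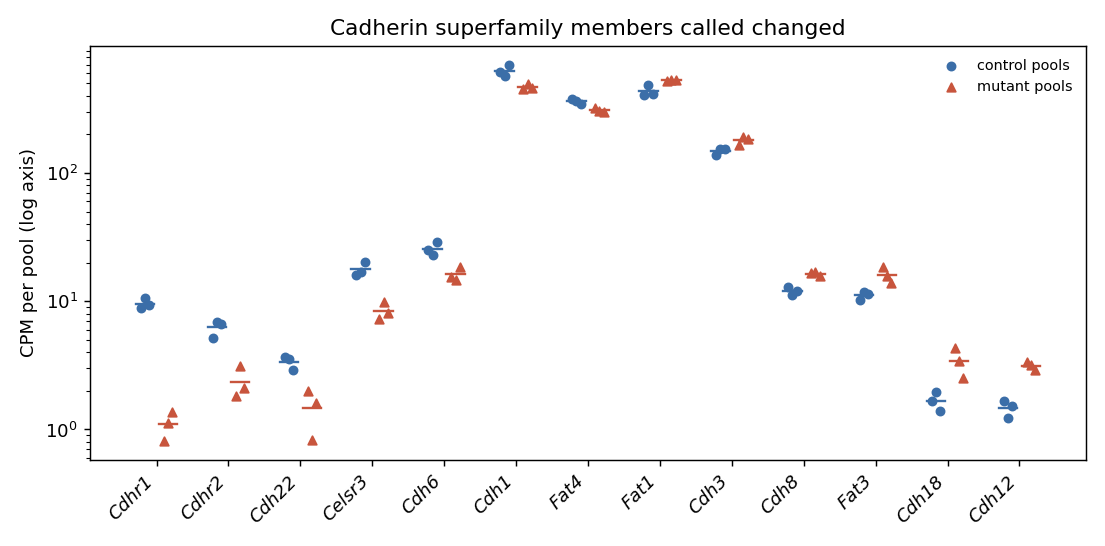
CPM in each pool (log axis) for the 13 called members, ordered by log2 fold change. Circles are the 3 control pools, triangles the 3 mutant pools and bars the group means. In each of the 13 genes the groups do not overlap, as they did not for 26.4% of all genes tested. The genes were chosen by a test on these same pools, so the lack of overlap is no separate support.

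The family was dominated by a few genes of the epithelium and mesenchyme. Cdh1, Cdh11, Fat1, Fat4, Dchs1 and Pcdh18 together took 65.1% to 67.5% of the family's summed CPM in every library. Per kilobase of exon, which allows levels of different genes to be set side by side, Cdh1 stood highest at 137.1 ± 14.3 CPM per kilobase in controls (SD, n = 3). Cdh11 followed at 51.5 ± 2.74 and Pcdh18 at 46.5 ± 3.62 CPM per kilobase in controls, and these neighbours in the order differed by less than the sum of their SDs. Cdh3 (33.7 ± 2.01), Fat1 (27.9 ± 2.86), Dchs1 (23.6 ± 4.36) and Fat4 (21.2 ± 1.12 CPM per kilobase) came next. Fat1 and Dchs1, and likewise Dchs1 and Fat4, overlapped within their spread. At the other end, Cdh9, Cdh20, Cdh26, Cdhr3 and Cdhr5 outside the clusters had too few reads to be tested. The family's summed CPM was 3564, 3739 and 3456 in control pools 1 to 3 and 3545, 3465 and 3552 in mutant pools 1 to 3, so the groups overlapped.

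**Figure D2:**
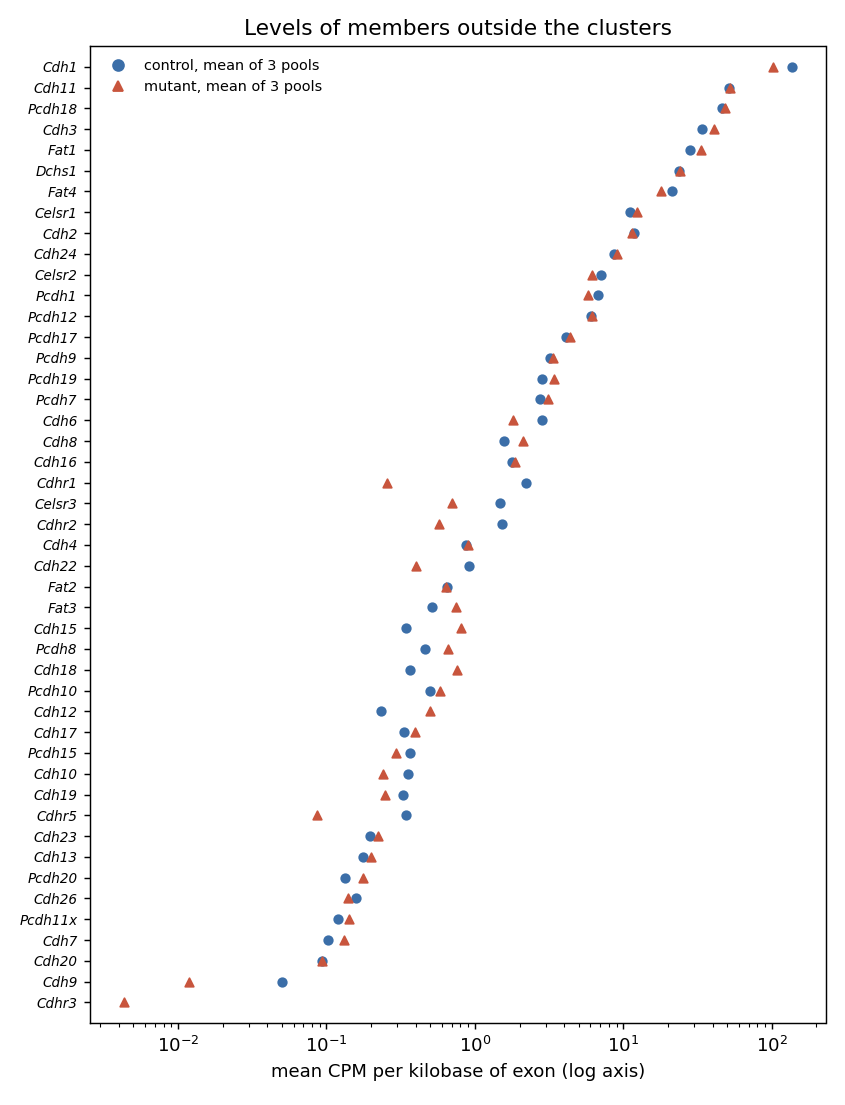
Mean CPM per kilobase of exon (log axis) in controls (circles) and mutants (triangles) for the members outside the clusters, ordered by level. Cdh1 leads in both groups, and the widest gaps between the groups among tested genes are those of Cdhr1 and Cdhr2. Cdhr3 had no control reads and shows 1 symbol.

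Cdh1, encoding E-cadherin of epithelial adherens junctions, fell in mutants. It lies on chromosome 8 from 106603351 to 106670246 on the plus strand (GRCm38, GENCODE M21). Its level was 614.7, 568.5 and 697.6 CPM in control pools 1 to 3 and 449.7, 492.9 and 461.7 CPM in mutant pools 1 to 3. Every mutant pool lay below every control pool, and the log2 fold change was -0.42 (SE 0.074, adjusted p = 0.0100), a 1.34-fold decrease. Across the alternative settings it ranged from -0.49 to -0.31 and stayed called. The summed CPM of 14 markers of pancreatic epithelium was 1485 to 1725 in these control pools and 1359 to 1514 in these mutant pools, and its part in the level of Cdh1 was not tested. Cdh3, encoding P-cadherin, is the tandem neighbour of Cdh1 on the same strand of chromosome 8 (106510891 to 106557297), 46.1 kb away. It moved in the other direction: 137.5, 152.9 and 152.7 CPM in control pools and 164.5, 192.1 and 183.9 CPM in mutant pools. The groups did not overlap, and Cdh3 rose by 0.29 on the log2 scale (SE 0.066, adjusted p = 0.0321). Dropping control pool 1 (adjusted p = 0.112), control pool 3 (0.0572), mutant pool 2 (0.117) or mutant pool 3 (0.0995) ended this call. The ratio of Cdh3 to Cdh1 CPM within a library was 0.224, 0.269 and 0.219 for controls and 0.366, 0.390 and 0.398 for mutants, so the balance of these neighbouring genes was shifted towards Cdh3 in all 3 mutant pools.

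The other type I cadherins were not called. Cdh2, encoding N-cadherin of mesenchymal, neural and endocrine cells, averaged 95.7 ± 7.85 CPM for controls and 92.7 ± 6.65 CPM for mutants (SD, n = 3). The normal 95% interval of the Cdh2 log2 fold change, narrower than the test allows, ran from -0.19 to 0.10. Cdh4, encoding R-cadherin, had 6.33 ± 1.22 and 6.52 ± 0.814 CPM. Cdh15, the M-cadherin of skeletal muscle, was scarce at 0.776, 1.77 and 0.818 CPM in control pools and 1.01, 5.54 and 1.37 CPM in mutant pools. Its estimate of 1.24 (SE 0.645) was not called (adjusted p = 0.327), and mutant pool 2 alone held 94 reads where the other pools held 13 to 29. The summed CPM of the 5 type I genes was 833 to 947 in controls and 716 to 782 in mutants.

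Type II cadherins split in both directions. These genes, related to the type I set, are expressed in restricted cell populations, many of them neural or mesenchymal. Of 12 members, 10 were tested, 3 were called higher, 2 lower and 5 not called. Over all genes tested, 3.67% were called higher and 4.28% lower. Cdh6, K-cadherin of kidney and neural tissue, stood at 25.0, 22.7 and 28.9 CPM in control pools and 15.4, 14.6 and 18.6 CPM in mutant pools. All mutant pools lay below all control pools, and the log2 fold change was -0.66 (SE 0.12, adjusted p = 0.0118). The call was lost without mutant pool 2 (adjusted p = 0.0532) and without both pools lacking Xist reads (0.0667). Cdh22, a cadherin described in brain and pituitary, fell from 3.64, 3.53 and 2.92 CPM to 2.01, 0.825 and 1.60 CPM. The mutant values came from 32, 14 and 28 reads, and mutant pool 2 was lowest. On the log2 scale Cdh22 fell by 1.19 (SE 0.292, adjusted p = 0.0414). Leaving out control pool 1 (adjusted p = 0.127), control pool 2 (0.0711), control pool 3 (0.0655), mutant pool 2 (0.0899) or mutant pool 3 (0.0970) ended that call.

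Cdh8, Cdh12 and Cdh18, all type II genes studied mainly in neurons, were higher in mutants. Cdh8 stood at 12.96, 11.3 and 12.04 CPM in control pools and 16.7, 16.8 and 15.7 CPM in mutant pools, with no overlap. It rose by 0.44 on the log2 scale (SE 0.092, adjusted p = 0.0208), a call lost without control pool 3 (0.0609), mutant pool 1 (0.0619), mutant pool 2 (0.0810) or both pools lacking Xist reads (0.109). Cdh12 had 28, 20 and 26 reads in control pools and 53, 54 and 51 reads in mutant pools, which gave 1.67, 1.22 and 1.52 CPM against 3.33, 3.18 and 2.92 CPM. Its mutant pools differed little among themselves and all lay above the controls. The gene rose 2.13-fold (log2 fold change 1.09, SE 0.203, adjusted p = 0.0126), and the call was lost without mutant pool 2 (0.0533) and without both pools lacking Xist reads (0.0755). Cdh18 rose from 28, 32 and 24 reads to 69, 58 and 44 reads, or by 1.03 on the log2 scale (SE 0.252, adjusted p = 0.0408). Mutant pool 1 was highest and mutant pool 3 lowest among the mutants. Cdh18 was no longer called without control pool 1 (adjusted p = 0.119), control pool 3 (0.122), mutant pool 1 (0.129) or mutant pool 2 (0.116), without both pools lacking Xist reads (0.247, log2 fold change 0.71) and with limma voom (0.0562).

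Cdh12, Cdh18 and Cdh6 lie on chromosome 15. Cdh12 and Cdh18, which rose, are 959.5 kb apart, and Cdh6, which fell, lies 9375 kb from Cdh18. Cdh10, a further gene of the same chromosome, averaged 3.59 ± 0.686 CPM (controls) and 2.43 ± 0.666 CPM (mutants), without a call (adjusted p = 0.242). Cdh11, the cadherin of mesenchyme and the most abundant type II member, was at 465.0, 478.4 and 431.1 CPM in control pools and 499.7, 431.2 and 470.4 CPM in mutant pools. The groups overlapped, and the normal 95% interval of the log2 fold change, narrower than the test allows, ran from -0.10 to 0.15. Cdh24 (30.3 ± 6.62 and 31.5 ± 2.29 CPM) and Cdh19, a cadherin of Schwann cell precursors (1.41 ± 0.591 and 1.06 ± 0.835 CPM), were not called either.

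Cadherin-related genes showed the widest differences of the family. Cdhr1, encoding a photoreceptor cadherin also described in olfactory bulb, was present in every control pool at 8.78, 10.6 and 9.35 CPM, from 147, 174 and 160 reads. Mutant pools held 0.817, 1.12 and 1.37 CPM, from 13, 19 and 24 reads, so every mutant pool lay far below every control pool. The log2 fold change was -3.10 (SE 0.196, adjusted p = 7.46e-05), an 8.58-fold decrease, with a range of -3.29 to -2.93 over the alternative settings. Cdhr1 lies on chromosome 14 from 37077857 to 37098347, and its annotated exons share no base with another gene. Cdhr2, the protocadherin of the intestinal and renal brush border, had 5.19, 6.88 and 6.66 CPM in control pools and 1.82, 3.12 and 2.12 CPM in mutant pools. Its groups did not overlap and it fell by 1.40 on the log2 scale (SE 0.223, adjusted p = 0.00611), a 2.64-fold decrease that stayed called under all alternatives. Cdhr5, the partner that binds Cdhr2 between neighbouring microvilli, was scarce, with 14, 8 and 26 reads in control pools and 3, 5 and 4 reads in mutant pools. It had too few reads to be tested over all 6 pools. With no filter on low counts the estimate for Cdhr5 came to -1.96 (SE 0.518, adjusted p = 0.0515), and its groups did not overlap. Cdhr5 passed the filter in 4 of the fits that left out 1 pool. Its mutant pools all lay under the minimum count of 10, so control pools alone let it in. In these fits Cdhr5 was called without control pool 2, its lowest control (-2.28, adjusted p = 0.0185). It was not called without mutant pool 1 (0.150), mutant pool 2 (0.124) or mutant pool 3 (0.147). As the control pools decided its entry, these fits give no further support for a decrease. Cdhr3 had 1 read in all. Of 14 endocrine markers 11 were called lower in the same mutant pools, where 4.28% of all genes tested were called lower. The part of endocrine cells in the levels of the cadherin-related genes and Celsr3 was not tested.

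The sequence upstream of the start is shown for these cadherin-related genes and for Celsr3, chosen after their values were seen. Cdhr5 is included as the partner of Cdhr2, although its reads were few. Each is the 250 bases before the RefSeq transcription start on GRCm38.p6, 5′ to 3′ on the gene's strand, and capitals mark the motif CANNTG on either strand. CANNTG, the E-box, is the motif of basic helix-loop-helix factors, which include the endocrine factor Neurog3, and its form CAGGTG is also that of Snail and Zeb repressors.
Cdhr1, chr14:37098348-37098597, minus strand: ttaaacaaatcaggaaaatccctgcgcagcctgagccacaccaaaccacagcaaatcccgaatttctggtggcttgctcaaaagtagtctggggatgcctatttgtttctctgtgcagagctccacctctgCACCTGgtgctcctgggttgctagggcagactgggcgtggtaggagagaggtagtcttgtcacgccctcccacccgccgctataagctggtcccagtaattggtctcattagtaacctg
Cdhr2, chr13:54701213-54701462, plus strand: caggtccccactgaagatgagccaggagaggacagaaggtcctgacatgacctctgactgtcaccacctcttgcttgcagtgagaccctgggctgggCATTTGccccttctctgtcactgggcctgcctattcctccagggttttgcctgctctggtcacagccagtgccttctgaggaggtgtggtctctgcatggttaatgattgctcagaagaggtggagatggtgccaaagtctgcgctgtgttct
Cdhr5, chr7:141276787-141277036, minus strand: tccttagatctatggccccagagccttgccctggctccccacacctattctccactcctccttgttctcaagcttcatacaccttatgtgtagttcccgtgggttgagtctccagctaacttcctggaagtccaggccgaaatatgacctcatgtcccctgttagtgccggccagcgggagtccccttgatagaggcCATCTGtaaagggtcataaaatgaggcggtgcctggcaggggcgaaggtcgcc
Celsr3, chr9:108825795-108826044, plus strand: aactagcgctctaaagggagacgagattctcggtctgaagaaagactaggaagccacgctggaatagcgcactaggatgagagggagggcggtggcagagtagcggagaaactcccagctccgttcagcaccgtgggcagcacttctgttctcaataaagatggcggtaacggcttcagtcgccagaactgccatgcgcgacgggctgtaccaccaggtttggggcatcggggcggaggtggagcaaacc

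The upstream stretches held 1 E-box each for Cdhr1, Cdhr2 and Cdhr5 and 0 for Celsr3. The last base of the motif lay 114 bases before the start in Cdhr1, 148 in Cdhr2 and 48 in Cdhr5. The E-box of Cdhr1 was of the CAGGTG form, read on the other strand, and that of Cdhr5 of the CAGATG form. Such motifs are common: of 32851 upstream stretches of the same length in the RefSeq table, 66.2% held CANNTG, 17.2% CAGGTG and 14.4% CAGATG. The matches describe these letters and say nothing of which factor binds. The RefSeq start of Celsr3 used here differs from the start of its GENCODE gene.

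Cdhr2 and Cdhr5 belong to the intermicrovillar adhesion complex, which ties the tips of microvilli together and is anchored by the scaffold Ush1c, the adaptor Anks4b and the motor Myo7b. Of 13 partner genes of this complex and of the related tip link of hair cells, 11 were tested. Of these, 3 were called lower, 0 higher and 8 not called, where 4.28% of all genes tested were called lower. The median log2 fold change of the tested partners was -0.72 against 0.00 over all genes. Ush1c, encoding harmonin, stood at 10.1, 12.1 and 10.6 CPM in control pools and 2.83, 4.30 and 4.41 CPM in mutant pools, a change of -1.51 on the log2 scale (SE 0.175, adjusted p = 0.00142). Espn, encoding the actin-bundling protein espin, changed by -0.92 (SE 0.127, adjusted p = 0.00327) and Ush1g, a harmonin-binding scaffold gene of about 1 CPM, by -1.22 (SE 0.312, adjusted p = 0.0474). Myo7b, below 1.10 CPM in every pool, had an estimate of -1.93 (SE 0.511, adjusted p = 0.0534). At this level Myo7b met the count filter through its control pools, so it could hardly come out higher in mutants. It still counts among the 11 tested partners and in their median. Vil1, encoding villin, had -0.88 (SE 0.256, adjusted p = 0.0747) and Anks4b -0.72 (SE 0.298, adjusted p = 0.208). Myo7b, Vil1 and Anks4b were not called. Calml4, encoding a light chain of this motor, at 4.62 ± 0.984 and 4.21 ± 0.336 CPM, and Ezr, encoding the membrane linker ezrin, at 197.6 ± 15.8 and 209.0 ± 13.8 CPM, did not pass the test either. The tip-link cadherins of hair cells, Cdh23 (3.30 ± 0.250 and 3.76 ± 0.398 CPM) and Pcdh15 (8.65 ± 0.578 and 6.95 ± 1.34 CPM), were not called, and Tmc1, which encodes a channel of hair cells, had no read in any library.

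**Figure D3:**
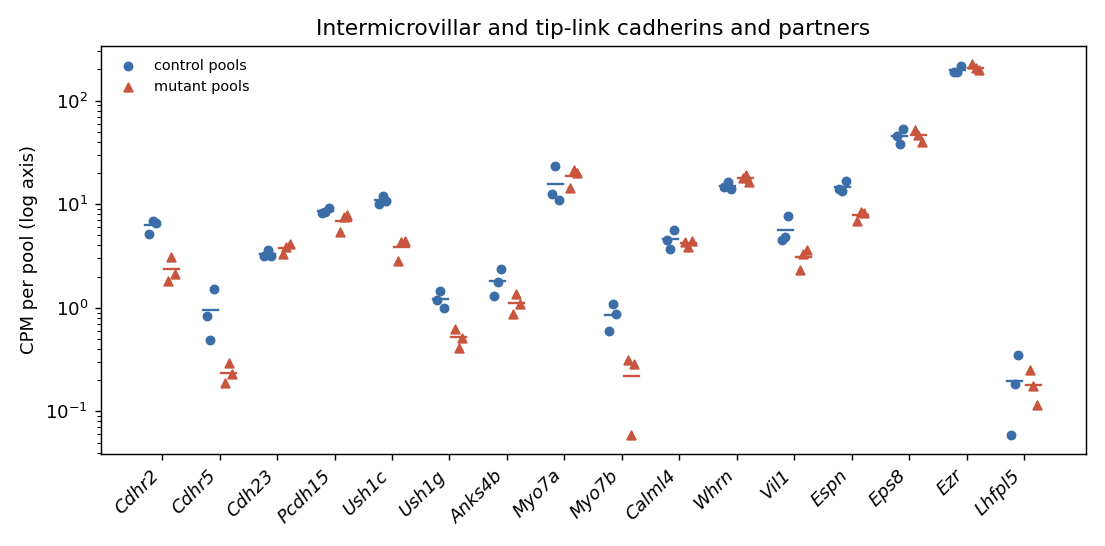
CPM in each pool (log axis) for 4 cadherins of the intermicrovillar complex and the tip link (Cdhr2, Cdhr5, Cdh23 and Pcdh15) and their listed partners with reads in every library. Circles are control pools, triangles mutant pools and bars group means. The groups of Cdhr2, Cdhr5, Pcdh15, Ush1c, Ush1g, Myo7b, Vil1 and Espn do not overlap, with mutants lower, and those of Whrn do not overlap, with mutants higher. Over all genes tested, the groups did not overlap for 26.4%. Cdhr5 was not among the genes tested, and Myo7b was tested through its control pools.

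Among the giant cadherins of the Fat and Dachsous class, Fat1 and Fat3 rose and Fat4 fell, all by less than 1.5-fold. Fat1, a regulator of actin and of growth, stood at 408.8, 489.0 and 414.2 CPM in control pools and 516.5, 531.7 and 530.3 CPM in mutant pools, so control pool 2 came closest to the mutants. Fat1 rose by 0.27 on the log2 scale (SE 0.068, adjusted p = 0.0464). The call was lost when any pool other than control pool 2 was left out, with adjusted p = 0.163 for control pool 1, 0.132 for control pool 3, 0.0920 for mutant pool 1, 0.148 for mutant pool 2 and 0.129 for mutant pool 3. It was also lost with total-count scaling (0.0629) and without both pools lacking Xist reads (0.165). Fat3, expressed mainly in neural tissue, had 10.1, 11.8 and 11.4 CPM in control pools and 18.6, 15.6 and 13.8 CPM in mutant pools, and mutant pool 1 was the highest. Its log2 fold change of 0.52 (SE 0.126, adjusted p = 0.0382) was no longer called without control pool 1 (0.130), control pool 3 (0.0851), mutant pool 1 (0.103), mutant pool 2 (0.0989) or both pools lacking Xist reads (0.145), or with the replicate number as a block (0.0603).

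Fat4, the receptor of the Fat and Dachsous pair that is needed in mesenchyme of several organs, had 380.2, 366.9 and 342.4 CPM in control pools and 321.4, 302.8 and 300.7 CPM in mutant pools. The groups did not overlap, although control pool 3 and mutant pool 1 were close. Fat4 fell by 0.24 on the log2 scale (SE 0.05, adjusted p = 0.0214), a call lost without control pool 1 (0.0889), mutant pool 2 (0.0921) or mutant pool 3 (0.0831). Its exons share 8.7% of their bases with antisense genes, whose reads cannot be told apart because the strand setting of the counting is not given in the sources used here. Dchs1, the ligand of Fat4, was at 251.3, 312.9 and 217.8 CPM in control pools and 261.5, 257.7 and 281.8 CPM in mutant pools. The groups overlapped and Dchs1 was not called (log2 fold change 0.03, SE 0.111). Fat2 stood at 9.50 ± 1.09 and 9.27 ± 0.701 CPM and was not called.

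Of the Celsr genes, which encode the core planar polarity cadherins, Celsr3 fell and the other two were not called. Celsr3, known for its role in axon guidance and reported in endocrine pancreas, lies on chromosome 9 from 108826320 to 108852969. It stood at 16.1, 16.9 and 20.4 CPM in control pools and 7.29, 9.90 and 8.07 CPM in mutant pools. The highest mutant pool was well below the lowest control, and Celsr3 fell by 1.08 on the log2 scale (SE 0.141, adjusted p = 0.00259), a 2.11-fold decrease with a range of -1.21 to -0.88 over the alternatives, all of them calls. Celsr1, the epithelial member, had 122.3 ± 7.72 CPM in controls and 136.1 ± 10.3 CPM in mutants (adjusted p = 0.224). Celsr2 had 82.0, 95.1 and 67.7 CPM in control pools and 76.9, 70.5 and 66.0 CPM in mutant pools. Its estimate of -0.20 (SE 0.113) did not pass the test (adjusted p = 0.376). Single pools moved the Celsr2 estimate, from -0.078 without control pool 2 (adjusted p = 0.678) to -0.32 without control pool 3 (0.0682), and without both pools lacking Xist reads it was -0.38 and called (0.0381). The difference between Celsr3 and the other Celsr genes was not tested. Among 23 tested partners of planar polarity and Fat signalling, such as Vangl2 and Fjx1, 0 were called by edgeR, where 7.95% of all genes tested were called. Of these partners 6 had an unadjusted p under 0.05, and their median log2 fold change was 0.02.

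**Figure D4:**
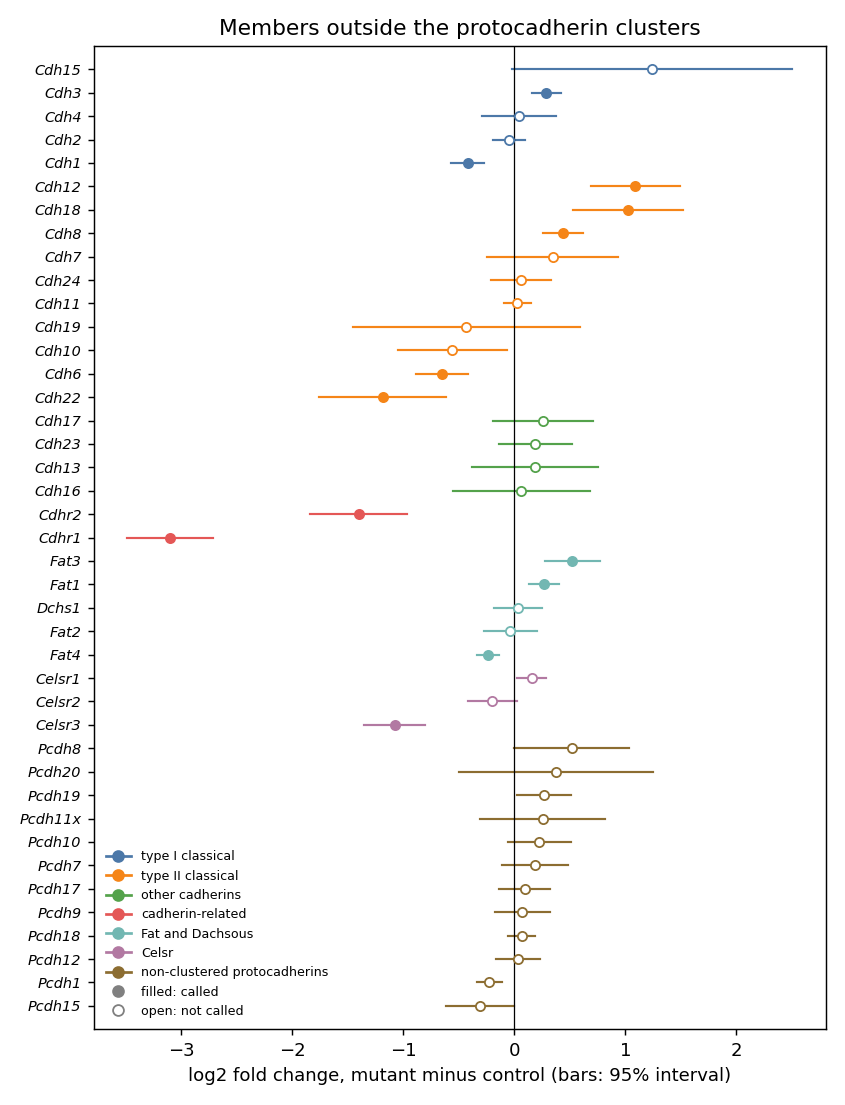
Log2 fold change, mutant minus control, with its normal 95% interval for the 41 tested members outside the clusters, by subfamily. The intervals are narrower than the test behind the calls allows, so a bar that misses 0 is not a call. Filled points are called, and Cdhr1 at -3.10 lies farthest from 0.

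The 12 non-clustered protocadherins were all tested, and 0 were called by edgeR, against 7.95% of all genes tested. Among these 12 genes, 1 had an unadjusted p under 0.05. Their median log2 fold change was 0.14, and 10 of the 12 estimates were above 0. Pcdh1, found in airway and other epithelia, was closest to a call. It stood at 58.6, 61.9 and 58.5 CPM in control pools and 51.9, 48.0 and 53.3 CPM in mutant pools, with no overlap. The estimate for Pcdh1 was -0.22 on the log2 scale (SE 0.058, adjusted p = 0.0501). It was called with total-count scaling (0.0319), with robust estimation (0.0446) and when genes needed 1 CPM or more in 3 libraries (0.0481). Leaving out 1 pool at a time gave no call of Pcdh1, with adjusted p from 0.0798 without mutant pool 3 to 0.187 without mutant pool 2. Pcdh18, the most abundant protocadherin and a gene of mesenchyme, was at 248.2, 270.0 and 231.2 CPM in control pools and 259.4, 249.97 and 274.0 CPM in mutant pools, which overlapped. Pcdh15 ranged from 8.18 to 9.29 CPM in controls and from 5.41 to 7.84 CPM in mutants, without overlap and without a call (adjusted p = 0.304).

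Several protocadherins were highest in mutant pool 1. Pcdh19, an X-linked gene of neurons, stood at 42.8 CPM in that pool and at 28.1 to 33.5 CPM in the others. Pcdh7 stood at 42.7 CPM there and at 27.3 to 30.1 CPM elsewhere. Its exons share 21.1% of their bases with a gene on the opposite strand. Reads of that gene cannot be told apart, as the strand setting of the counting is not given. Pcdh17 (67.8 CPM against 48.4 to 58.0) and Pcdh12, a protocadherin of endothelial cells (44.0 CPM against 32.6 to 37.5), showed the same order. Mutant pool 1 also had the highest summed CPM of 12 endothelial markers, 1002 against 709 to 827 in the other 5 pools, and its part in these values was not tested. Of these genes, Pcdh7, Pcdh12 and Pcdh17 had estimates of 0.19, 0.03 and 0.09 that turned negative without mutant pool 1 (-0.038, -0.093 and -0.052). Pcdh8, a paraxial mesoderm and neural protocadherin, had 2.11 ± 0.382 and 3.01 ± 0.866 CPM, and Pcdh10, of neurons, 7.91 ± 1.38 and 9.26 ± 0.698 CPM, and both were not called.

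Of the remaining cadherins, Cdh13, Cdh16, Cdh17 and Cdh23 were tested and 0 were called by edgeR, with 0 at an unadjusted p under 0.05. The share called over all genes tested was 7.95%. Cdh16, the kidney-specific cadherin, varied between pools, at 5.85, 3.78 and 10.6 CPM in control pools and 8.11, 6.66 and 6.41 CPM in mutant pools, and control pool 3 held the most. Its estimate of 0.06 lay between -0.23 without control pool 2 and 0.55 without control pool 3, and it was also negative without control pool 1 (-0.030) or mutant pool 1 (-0.047). Cdh17, the liver-intestine cadherin, had 1.49 ± 0.0885 and 1.78 ± 0.337 CPM, and Cdh13, the membrane-anchored T-cadherin, 1.97 ± 0.638 and 2.24 ± 0.548 CPM.

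The clustered protocadherins, 59 members in the alpha, beta and gamma clusters of chromosome 18, gave 0 calls by edgeR in the 43 genes tested. Of all genes tested, 7.95% were called. Each clustered gene except Pcdha4-g uses its own first exon, or in beta a single exon, to give 1 of many related surface proteins. Alpha and gamma genes share constant exons within their cluster. Reads from the shared exons cannot be given to 1 gene, so the counts may miss them, and levels per kilobase are not given here. Few reads were assigned to the alpha cluster, 21 to 39 summed over its 15 genes in each library, and 0 of the 15 were tested. The 15 include Pcdha4-g, placed there by its symbol only. Pcdha4-g reaches into the gamma cluster, shares 100% of its exon bases with other genes and had no read. As reads from the shared alpha exons may be missing, the summed counts do not give the cluster's full level. Beta genes summed to 103, 88.6 and 75.6 CPM in control pools and 89.5, 82.4 and 95.3 CPM in mutant pools, with 21 of 22 genes tested. Gamma genes summed to 242.9, 267.1 and 220.4 CPM in control pools and 250.5, 248.0 and 263.2 CPM in mutant pools, with all 22 tested. In both clusters the control pools spanned the mutant values. Log2 fold changes ran from -0.45 to 0.22 in the beta cluster and from -0.61 to 0.20 in the gamma cluster, with medians of 0.00 and 0.02.

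Within the gamma cluster Pcdhgc3, a C-type gene named after its values were seen, took 46.9% to 51.7% of the assigned reads in every library. Its level was 116.9 ± 14.0 CPM among controls and 128.2 ± 1.09 CPM among mutants, an estimate of 0.13 on the log2 scale without a call (adjusted p = 0.381). The Pcdhgc3 estimate was 0.22 and called without control pool 2 (adjusted p = 0.0376), 0.047 without control pool 3 (0.737) and 0.041 without both pools lacking Xist reads (0.845). The other C-type genes, also named after their values were seen, were Pcdhgc4 (7.40 ± 0.190 and 5.74 ± 0.979 CPM) and Pcdhgc5 (2.33 and 1.53 CPM on average), which had negative estimates of -0.37 and -0.61 and were not called (adjusted p = 0.191 and 0.227). No beta gene took more than 12.01% of the beta reads in any library. Control pool 1 held the highest value for 9 of the 21 tested beta genes, and control pool 2 for 9 of the 22 gamma genes.

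**Figure D5:**
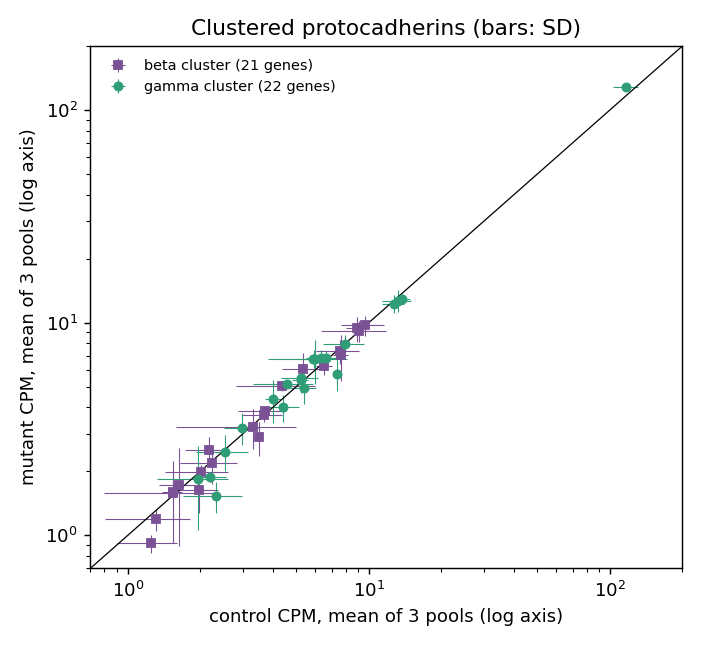
Mean CPM in mutants against controls (log axes) for the 43 tested beta and gamma protocadherins, with SD bars over 3 pools and the line of equality. Pcdhgc3 stands apart at 116.9 and 128.2 CPM, and the genes lie along the line.

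Counts of calls among partners of cadherins are set beside the 7.95% of all genes tested that were called, 3.67% higher and 4.28% lower. Of 24 adherens junction genes tested, 2 were called higher, 0 lower and 22 not called. Pvrl2, the older symbol of Nectin2, changed by 0.27 (SE 0.047, adjusted p = 0.00894) and the scaffold gene Iqgap1 by 0.18 (SE 0.04, adjusted p = 0.0271). The catenin genes Ctnnb1 (-0.04, SE 0.043), Ctnna1 (0.02, SE 0.037) and Ctnnd1 (-0.06, SE 0.038) were not called. Of 6 tested desmosome genes 0 were called by edgeR and 4 had an unadjusted p under 0.05, with a median of -0.17. Among 7 tested repressors of classical cadherins, Zeb2 alone was called, higher by 0.27 (SE 0.05, adjusted p = 0.0121), at 180.5, 177.5 and 164.6 CPM in control pools and 215.7, 200.2 and 214.6 CPM in mutant pools. Snai1 at 0.03 (SE 0.163) and Zeb1 at 0.05 (SE 0.043) were not called. Of 19 genes of protocadherin promoter choice and signalling, Cyfip2, a subunit of the actin-regulating WAVE complex, was called lower (-0.36, SE 0.065, adjusted p = 0.0115). Of 15 genes of cadherin cleavage and glycosylation, the protease gene Pcsk6 was lower (-0.56, SE 0.108, adjusted p = 0.0148) and Tmtc2, encoding an O-mannosyltransferase of cadherins, higher (0.37, SE 0.088, adjusted p = 0.0379).

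Markers of several cell types were also compared between the groups. Of all genes tested, 3.67% were called higher and 4.28% lower. Of 14 endocrine markers, 11 were called lower and 0 higher, and their summed CPM was 2037 to 2710 in controls and 1438 to 1539 in mutants. Of 15 neuronal markers 5 were lower and 0 higher (448 to 635 CPM in controls and 380 to 449 CPM in mutants). Of the 14 markers of pancreatic epithelium 3 were lower and 1 higher, with Epcam, an adhesion gene of all these cells, at 347.9 ± 51.8 and 307.5 ± 15.8 CPM. Hepatocyte markers, several of which the pancreas also expresses, had 5 of 8 tested genes lower and 0 higher (413.8 to 565.2 and 241.4 to 276.1 CPM). Mesenchymal markers had 3 of 14 higher and 0 lower (9290 to 9602 and 10422 to 12013 CPM). No defining marker of these lists was at 0 in every library. The part of these cell types in the lower levels of Cdh1, Cdhr1, Cdhr2, Celsr3, Cdh6, Cdh22 and Fat4 and in the higher levels of Cdh3, Cdh8, Cdh12, Cdh18, Fat1 and Fat3 was not tested.

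Mesothelial markers had 0 of 9 tested genes called by edgeR, with 4 at an unadjusted p under 0.05, and summed to 1517 to 1919 CPM in controls and 1981 to 2104 CPM in mutants. Neural crest and Schwann precursor markers, which include Cdh19, had 2 of 11 higher and 2 lower (171.7 to 185.6 and 173.1 to 202.2 CPM). Endothelial markers had 1 of 12 higher and 0 lower (709 to 796 and 797 to 1002 CPM). Erythroid markers had 6 of 12 higher and 0 lower (1501 to 2385 and 1808 to 2534 CPM). Leukocyte markers had 2 of 10 higher and 0 lower (124.3 to 155.0 and 162.6 to 209.5 CPM). Markers of gut and spleen primordium had 1 of 6 tested genes lower and 0 higher (64.9 to 101.4 and 38.4 to 73.6 CPM).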

How the data were processed

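RNA from 6 pools of embryonic pancreas was sequenced, and the authors deposited 1 table of raw counts per gene symbol for each library. Per the submitters' processing notes, cutadapt 1.13, STAR, HTSeq 0.6.1p1, DESeq2 and the mm10 build were named. For their settings, the gene annotation and the strand setting, the sources used here give nothing. The labels' protocols name Trizol for RNA extraction and the series' design text a column kit.

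The deposited counts were read as they stand. With edgeR 4.0.16 (R 4.3.3), genes passed filterByExpr (minimum count 10), TMM gave the library scaling, and all 3 control pools were compared with all 3 mutant pools by the quasi-likelihood test, with no covariate and Benjamini-Hochberg adjustment over 14687 genes. Each SE was taken as the log2 fold change divided by the square root of F. Normal 95% intervals follow from it and are narrower than the quasi-likelihood test allows. Those of Cdh10, Pcdh15 and Pcdh19 exclude 0, although the unadjusted p of that test was 0.0522, 0.0771 and 0.0614. The pools are separate samples by their labels, and p-values measure only the spread between these pools. Exon lengths and positions came from GENCODE M21 (GRCm38) and 104 of 105 members matched. Upstream sequences came from the RefSeq table for GRCm38.p6, which gave them for 11 of the 13 called members, not for Cdh1 and Cdh3.

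Partner genes were listed for adherens junctions, desmosomes, cadherin repressors, planar polarity and Fat signalling, the intermicrovillar complex, protocadherin choice and cadherin processing, and markers for 11 cell types. The members, lists and tests were chosen with earlier results of these data known. Members named with values were every called member, the 3 of each subfamily with the highest CPM per kilobase and a set list. Of partner lists, up to 4 genes with the smallest p were named. Cdh10, Cdh15, the untested members, C-type gamma genes, catenins, Snai1, Zeb1 and further intermicrovillar partners were added after values were seen. The script was tested on simulated data. Alternatives were DESeq2 1.42.0 (size factors and Wald test), limma 3.58.1 voom, total-count scaling, other filters, robust estimation, a replicate block and leaving out pools. Dchs2 and Cdhr4 were not analysed here.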

Additional observations from a re-analysis of the deposited data

How the results depend on the processing

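The 36 named members gave 540 recomputed values over the 15 alternatives, and most of these members were not called to begin with. Of the 540 values, 471 kept their direction and their side of the threshold, and 39 were calls that were lost. Among the 13 called members, 0 changed sign under any of the 15 alternatives. Cdhr1, Cdhr2, Celsr3 and Cdh1 kept their calls in all 15. Leaving out 1 pool at a time gave 0 to 7 members called higher against 6, 4 to 7 called lower against 7, and 629 to 1421 genes called in all against 1167. Without both pools with almost no Xist reads, 1 member was called higher and 665 genes in all. Fewer samples enter these fits, and the cause of the changes was otherwise not tested. That setting also turned the uncalled Cdh11 (-0.068), Cdh24 (-0.023), Dchs1 (-0.067), Pcdh12 (-0.12), Pcdh17 (-0.12) and Pcdh7 (-0.057) negative on the log2 scale. Among single pools left out, uncalled members that changed sign ranged from -0.023 to 0.083 (Cdh11), -0.014 to 0.47 (Cdh13), -0.23 to 0.55 (Cdh16), -0.11 to 0.010 (Cdh2), -0.075 to 0.24 (Cdh24), -0.062 to 0.20 (Cdh4), -0.083 to 0.18 (Dchs1), -0.12 to 0.043 (Fat2), -0.093 to 0.13 (Pcdh12), -0.052 to 0.19 (Pcdh17) and -0.038 to 0.31 (Pcdh7). With the replicate number as a block, 5 members were called higher, 7 lower and 1138 genes in all. The numbers share no stated origin, and pools of the same number deviated with correlations of 0.14, 0.10 and -0.05, so they were not taken as pairs. Total-count scaling moved the median of all genes to -0.03. Depth limits the members with few assigned reads: the alpha cluster, with 21 to 39 reads in each library, and Cdhr5 were below the count filter.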
